A study of Mus musculus with 28 samples.

Results

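The genes described here are 8 members of the complement system: the C1q chains C1qa, C1qb and C1qc, the receptors C3ar1 and C5ar1, and the components C3, Cfb and Cfp. They were chosen by symbol, and 7 of the 8 had a probeset, each with 1 probeset that lists that symbol alone, out of 19272 gene symbols on the array and 14325 genes tested. C3 was not analysed here. Expression was measured on 28 Affymetrix arrays of amplified RNA from mouse renal dendritic cells, sorted by CD45, CD11c and MHC class II. Donor cells (CD45.2, BALB/c) and host cells (CD45.1, C57BL/6) came from the medulla and the cortex of the same kidney allografts 3 days after transplantation, with 3 arrays for each of the 4 groups. Homeostatic cells came from the medulla and the cortex of healthy BALB/c and C57BL/6 kidneys, with 4 arrays for each of the 4 groups. All groups share the sort and the amplification, the samples carry 11 mouse numbers, with the donor and host cells of a graft sharing a number although donor and host are different animals, and the labels used here state no age.

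C1q is the recognition molecule of the classical complement pathway. It is assembled from A, B and C chains, binds immune complexes and dying cells, and starts the cascade that cleaves C4, C2 and C3. Unlike most complement proteins, which the liver secretes, C1q is made largely by macrophages and dendritic cells, and macrophages of the kidney are known to express it. C3a and C5a, small fragments released by the cascade, act on the G protein-coupled receptors encoded by C3ar1 and C5ar1, which myeloid cells carry. Factor B, encoded by Cfb, supplies the protease of the alternative pathway convertase, and properdin, encoded by Cfp, stabilises that convertase.

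In the RefSeq table of GRCm38.p6, C1qb, C1qc and C1qa are neighbouring genes on chromosome 4. The promoter windows of C1qb and C1qc are shown because these adjacent genes were both lower in host than in C57BL/6 cells in each region, and those of C3ar1 and C5ar1 because C5ar1 passed between the homeostatic strains and C3ar1 did not. Each window runs from 250 bases before the start of the gene to 50 bases after it, on the minus strand, and 6 of the 8 members have one. The positions are chr4:136886151-136886450 for C1qb, chr4:136892865-136893164 for C1qc, chr6:122856108-122856407 for C3ar1 and chr7:16259289-16259588 for C5ar1. Capitals mark a match to a searched motif.
C1qb: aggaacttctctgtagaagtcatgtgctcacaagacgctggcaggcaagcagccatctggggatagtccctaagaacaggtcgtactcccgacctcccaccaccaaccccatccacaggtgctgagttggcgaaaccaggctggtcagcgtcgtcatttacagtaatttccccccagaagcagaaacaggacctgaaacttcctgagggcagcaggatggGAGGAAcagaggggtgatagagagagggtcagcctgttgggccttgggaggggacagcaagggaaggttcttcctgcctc
C1qc: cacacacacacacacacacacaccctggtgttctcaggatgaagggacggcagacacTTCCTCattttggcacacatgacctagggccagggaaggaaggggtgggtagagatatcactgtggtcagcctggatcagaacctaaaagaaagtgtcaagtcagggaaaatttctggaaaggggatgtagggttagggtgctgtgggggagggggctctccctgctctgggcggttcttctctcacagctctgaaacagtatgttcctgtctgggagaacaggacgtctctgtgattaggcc
C3ar1: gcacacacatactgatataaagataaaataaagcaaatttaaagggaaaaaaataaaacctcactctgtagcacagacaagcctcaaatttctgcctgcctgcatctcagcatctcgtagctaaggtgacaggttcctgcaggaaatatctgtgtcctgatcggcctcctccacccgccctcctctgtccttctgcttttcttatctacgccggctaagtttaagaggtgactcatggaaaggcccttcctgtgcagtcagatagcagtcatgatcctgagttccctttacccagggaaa
C5ar1: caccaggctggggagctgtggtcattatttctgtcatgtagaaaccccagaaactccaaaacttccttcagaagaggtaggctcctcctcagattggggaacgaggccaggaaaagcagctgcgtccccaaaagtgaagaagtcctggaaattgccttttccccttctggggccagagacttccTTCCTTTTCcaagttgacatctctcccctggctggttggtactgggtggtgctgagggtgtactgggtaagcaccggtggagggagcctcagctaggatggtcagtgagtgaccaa
The motifs searched, on both strands, were GAGGAA (the core bound by PU.1, a factor of myeloid cells), GAAANNGAA (an interferon response element) and TTCNNNGAA (a STAT site). C1qb held GAGGAA 30 bases before its start, and C1qc held the same core on the other strand 193 bases before its start. C5ar1 held an interferon response element 66 bases before its start, on the other strand, and C3ar1 held none of the 3 motifs. No printed match overlapped another. Of 32851 promoters of this length, 28.3% held GAGGAA, 8.56% held GAAANNGAA and 8.3% held TTCNNNGAA, so a match is a description of these letters only.

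Levels of a gene are in log2 units of array signal, with the mean ± SD of a group (n = 3 for graft groups, n = 4 for homeostatic groups), and the number of arrays limits the precision. Differences are log2 differences ± SE from limma over all 28 arrays, and a difference passed when its p, adjusted by Benjamini-Hochberg over 14325 genes, was under 0.05. Overlap of arrays between groups was recorded for the members only. The share of all genes without overlap was not counted, so a lack of overlap describes these values and is no test. The median of each array lay between 7.60 and 7.88. Markers of the sort were uneven: Itgax, which encodes CD11c, averaged 7.38 ± 0.19 in donor medulla and 7.66 ± 0.45 in host medulla, against 11.09 ± 0.21 in C57BL/6 medulla. The mean of 20 leukocyte-wide genes was 8.59 ± 0.55 in host medulla and 10.05 ± 0.93 in host cortex, against 11.16 ± 0.05 in C57BL/6 medulla and 10.95 ± 0.09 in C57BL/6 cortex. The mean of 13 epithelium-wide genes was 10.00 ± 0.30 in host medulla and 9.77 ± 0.15 in donor medulla. It was 7.87 ± 0.07 in C57BL/6 medulla and 8.49 ± 0.27 in BALB/c medulla. In the cortex it was 8.83 ± 0.27 in host, 8.82 ± 0.42 in donor, 7.95 ± 0.13 in C57BL/6 and 7.97 ± 0.20 in BALB/c cells. The part of epithelial RNA in the differences of the members was not tested. Replicate 1 of BALB/c medulla was the array least like its group: it correlated with the other 3 arrays at 0.788 on average, and the next lowest average was 0.848. These averages lay between 0.788 and 0.900 in the BALB/c groups and between 0.940 and 0.950 in the C57BL/6 groups. In these bulk samples fewer cells of a type and less RNA per cell cannot be told apart.

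C1q transcripts were high in donor cells and in both homeostatic strains and lower on average in host cells of the same grafts. C1qc stood at 12.36, 11.66 and 13.01 in donor medulla and at 8.79, 8.57 and 8.03 in host medulla. In the cortex it stood at 12.76, 12.17 and 12.34 in donor cells and at 7.27, 7.39 and 7.55 in host cells. The donor and host arrays did not overlap in either region. C1qc was 3.88 ± 0.27 higher in donor than in host medulla (adjusted p = 3.64e-09) and 5.02 ± 0.27 higher in donor than in host cortex (adjusted p = 5.16e-11). C1qa, the A chain, stood at 11.62, 9.86 and 11.98 in donor medulla and at 7.74, 7.86 and 8.18 in host medulla. In the cortex C1qa stood at 11.74, 10.66 and 11.06 in donor cells and at 7.65, 8.28 and 7.96 in host cells. Every donor array lay above every host array of its region, and the differences were 3.23 ± 0.43 in the medulla (adjusted p = 0.000143) and 3.19 ± 0.43 in the cortex (adjusted p = 0.000235).

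C1qb, the B chain, followed the same order with a smaller gap and a wider spread among host arrays. It stood at 10.72, 10.20 and 11.37 in donor medulla and at 8.60, 8.18 and 10.68 in host medulla, so that 1 host array lay among the donor arrays. In the cortex C1qb stood at 11.13, 10.29 and 10.59 in donor cells and at 8.99, 9.93 and 7.78 in host cells, without overlap. The donor-host difference did not pass in the medulla (1.62 ± 0.47, adjusted p = 0.209) or in the cortex (1.77 ± 0.47, adjusted p = 0.141). Without host medulla replicate 3 the medullary difference was 2.38 (adjusted p = 0.002), and without host cortex replicate 2 the cortical difference was 2.28 (adjusted p = 0.0309). These left-out arrays, at 10.68 and 9.93, were the host arrays highest in C1qb, so both passes rest on leaving out the array nearest the donor level. Of the 7 measured members, 4 were higher in donor than in host cells in each region, against 0.593% of all genes that passed in either direction in the medulla and 0.496% in the cortex. With only the groups compared in the fit, C1qa no longer passed in either region (adjusted p = 0.252 in the medulla and 0.0982 in the cortex), nor did C1qc in the medulla (adjusted p = 0.0788). The SE of the main fit draws on the spread of all groups. For C1qa the pooled SD was 0.55, against an SD of 1.13 in donor medulla and 0.23 in host medulla. With every array scaled to 20 leukocyte-wide genes, the medullary differences were 2.16 for C1qa (adjusted p = 0.0215) and 2.82 for C1qc (adjusted p = 0.000696). That scaling shifts all genes of an array alike, so differences relative to the median of all genes stay as they were.

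**Figure D1:**
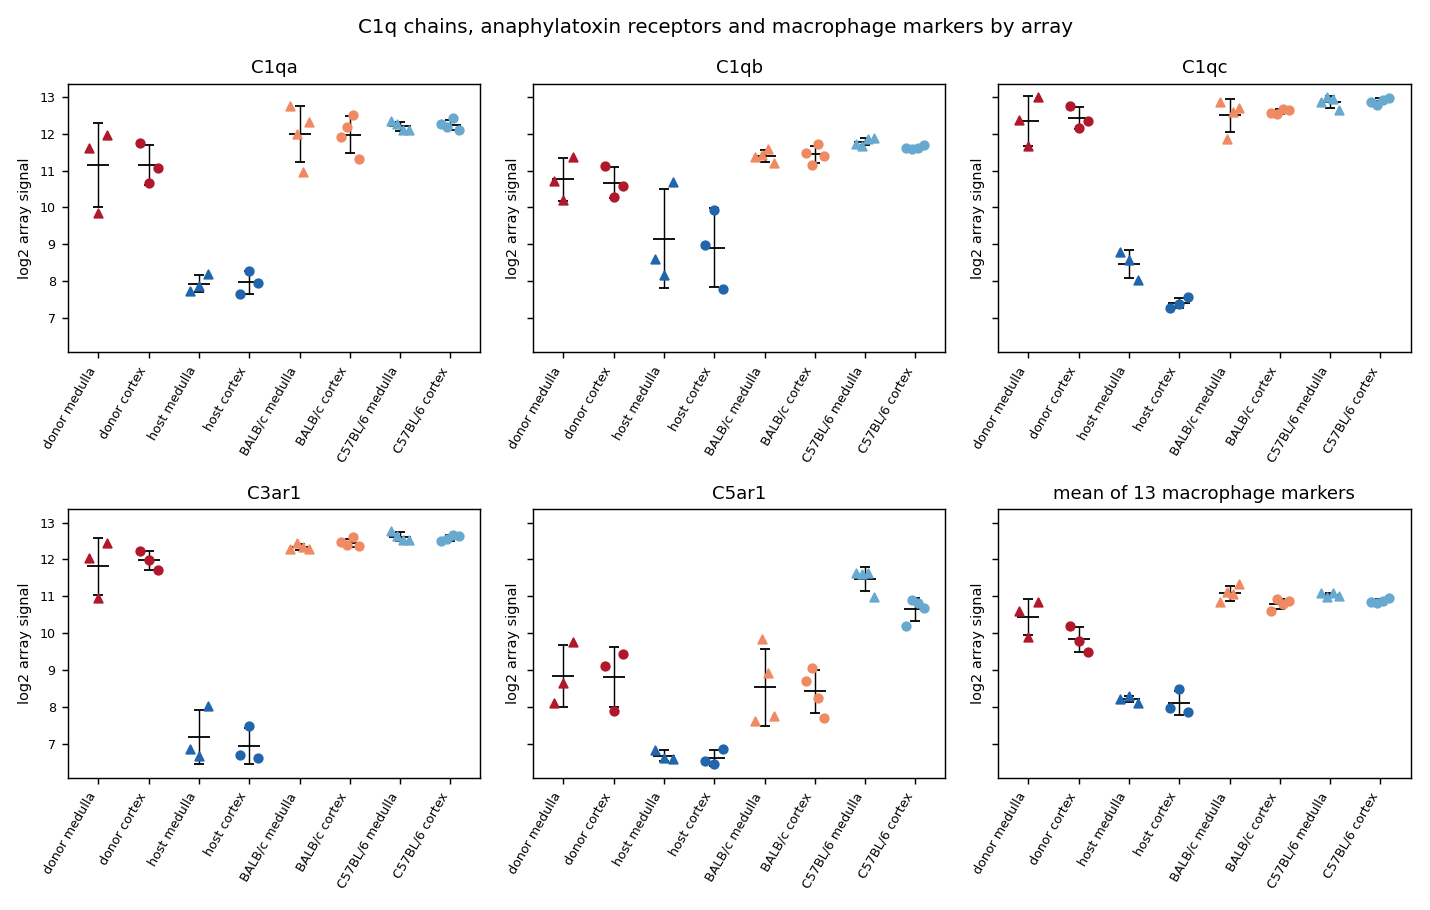
Log2 array signal of C1qa, C1qb, C1qc, C3ar1 and C5ar1, and the mean of 13 macrophage markers, in each array of the 8 groups; triangles are medulla, circles are cortex, and bars are the mean ± SD. Host arrays lie lowest in every panel except for C1qb, where 1 host medulla array at 10.68 lies among the donor arrays, and C5ar1 is also lower in BALB/c than in C57BL/6 cells.

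Against homeostatic C57BL/6 cells, the labelled strain of the host, all 3 chains were lower in host cells. C1qc averaged 8.46 ± 0.39 in host medulla and 7.40 ± 0.14 in host cortex, against 12.86 ± 0.16 in C57BL/6 medulla and 12.89 ± 0.08 in C57BL/6 cortex. C1qc differed by -4.40 ± 0.25 between host and C57BL/6 medulla (adjusted p = 6.65e-11) and its difference in the cortex was -5.48 ± 0.25 (adjusted p = 1.9e-12). In host cortex C1qc lay at a mean percentile of 41.8 among the probesets of an array, and whether that level is above background was not tested. Its mean percentile in host medulla was 68.1. In host medulla and host cortex C1qa lay at 56.8 and 58.2, and C1qb lay at 75.9 and 71.0. C1qa differed by -4.27 ± 0.41 in the medulla (adjusted p = 1.49e-07) and -4.28 ± 0.41 in the cortex (adjusted p = 3.12e-07). C1qb differed by -2.64 ± 0.44 in the medulla (adjusted p = 0.000219) and -2.72 ± 0.44 in the cortex (adjusted p = 0.000457). For each chain the host and C57BL/6 arrays did not overlap in either region. Of the 7 measured members, 6 were lower in host than in C57BL/6 medulla, where 11.5% of all genes passed, and 5 were lower and 1 higher in host than in C57BL/6 cortex, where 4.17% passed. The median difference of the 7 was -4.27 in the medulla, against 0.07 over all genes, and -4.03 in the cortex, against -0.01 over all genes. The donor-host and the host-C57BL/6 comparisons share the host arrays.

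Between donor and homeostatic BALB/c cells no C1q chain passed in either region. The differences of C1qc were -0.16 ± 0.25 in the medulla (95% interval -0.68 to 0.36) and -0.17 ± 0.25 in the cortex (-0.69 to 0.35). C1qa differed by -0.85 ± 0.41 in the medulla (interval -1.69 to -0.01, adjusted p = 0.225) and by -0.82 ± 0.41 in the cortex (-1.66 to 0.02, adjusted p = 0.14). C1qb differed by -0.63 ± 0.44 in the medulla (interval -1.55 to 0.28, adjusted p = 0.406) and by -0.77 ± 0.44 in the cortex (-1.68 to 0.14, adjusted p = 0.202), where the donor and BALB/c arrays did not overlap. The intervals of C1qa and C1qb still hold a decrease of more than 1 log2 unit. In the donor-BALB/c comparison 0 of 7 members passed in the medulla, where 3.18% of all genes passed and 1 member, C1qa, and 3140 genes had an unadjusted p under 0.05. In the cortex 1 of 7 passed, where 23.9% of all genes passed.

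**Figure D2:**
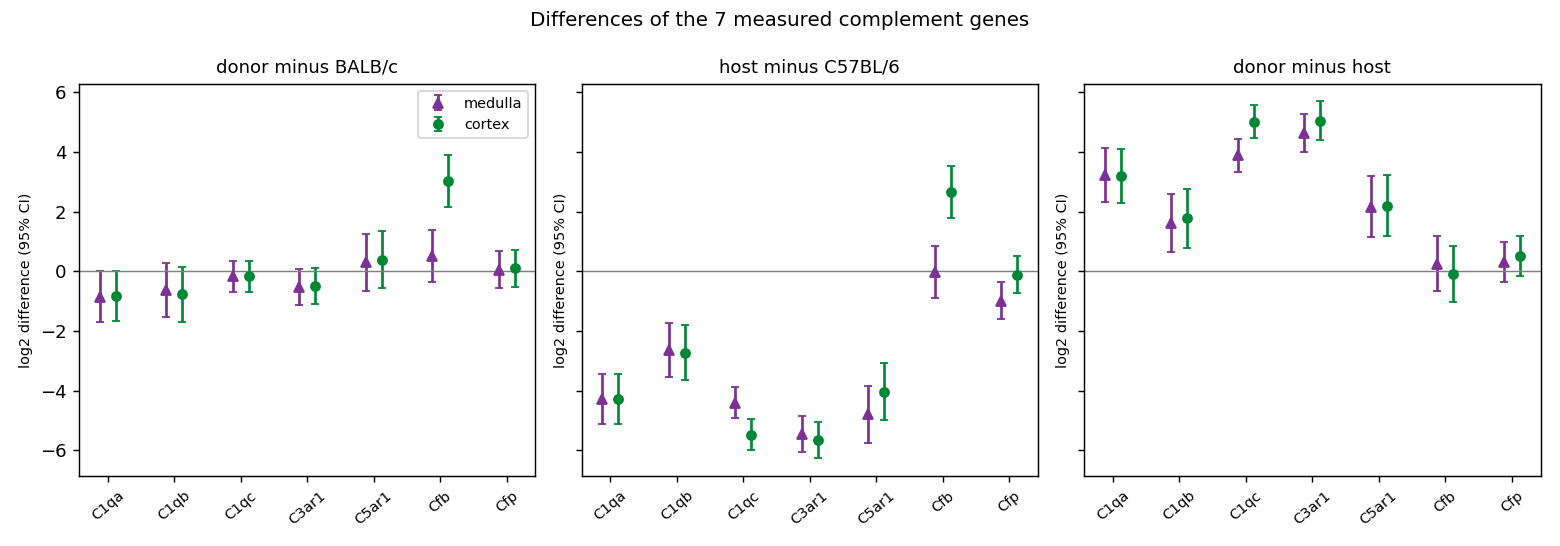
Log2 differences with 95% intervals of the 7 measured genes for donor minus BALB/c, host minus C57BL/6 and donor minus host cells; triangles are medulla and circles are cortex. The C1q chains and both receptors lie below 0 in host minus C57BL/6 cells and above 0 in donor minus host cells, while Cfb lies above 0 in graft cortex, at 3.02 for donor and 2.64 for host cells.

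The donor-host difference was also set against the strain difference, BALB/c minus C57BL/6, since donor and host cells are labelled with different strains. This contrast equals the donor-BALB/c difference minus the host-C57BL/6 difference. It draws on the same arrays as those comparisons and is no separate evidence. C1qc exceeded the strain difference by 4.24 ± 0.35 in the medulla (adjusted p = 2.49e-07) and by 5.31 ± 0.35 in the cortex (adjusted p = 5.32e-09). C1qa exceeded it by 3.42 ± 0.57 in the medulla (adjusted p = 0.00258) and by 3.46 ± 0.57 in the cortex (adjusted p = 0.00481). C1qb exceeded it by 2.01 ± 0.62 in the medulla (adjusted p = 0.121) and by 1.95 ± 0.62 in the cortex (adjusted p = 0.131), which did not pass. Of the 7 members, 4 passed in each region, where 1.14% of all genes passed in the medulla and 0.775% in the cortex. After scaling to leukocyte-wide genes the medullary values were 2.66 for C1qc (adjusted p = 0.0115) and 1.84 for C1qa (adjusted p = 0.0207). Without BALB/c medulla replicate 1 the medullary values were 4.36 for C1qc and 3.67 for C1qa. Without host medulla replicate 3, the host medulla array highest in C1qb, that chain passed at 2.77 (adjusted p = 0.00452).

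Macrophage markers moved with the C1q chains. Of 13 resident macrophage genes, 10 were lower in host than in C57BL/6 cells in each region. The median differences were -2.93 in the medulla, where 11.5% of all genes passed, and -2.95 in the cortex, where 4.17% passed. In each region 7 of the 13 were higher in donor than in host cells. Of all genes 0.593% passed there in the medulla and 0.496% in the cortex. The mean of the 13 ranged from 8.11 to 8.29 in host medulla and from 7.87 to 8.47 in host cortex. In C57BL/6 cells it ranged from 10.97 to 11.08 in the medulla and from 10.82 to 10.95 in the cortex. Adgre1, which encodes the macrophage surface protein F4/80, averaged 6.90 ± 0.92 in host medulla and 6.65 ± 0.78 in host cortex, against 12.29 ± 0.07 in C57BL/6 medulla and 12.27 ± 0.19 in C57BL/6 cortex. Mertk, a receptor for the uptake of dying cells, lay below the array median in most groups, between 6.83 ± 0.15 in host medulla and 7.68 ± 0.63 in donor medulla. The part of macrophage content in the C1q result was not tested.

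Leukocyte-wide genes moved with the C1q chains in the medulla. Of 20 such genes, 16 were lower in host than in C57BL/6 medulla (median -2.62), where 11.5% of all genes passed. In the cortex 0 of 20 passed between host and C57BL/6 cells by limma (median -0.85), with 11 at an unadjusted p under 0.05. There 4.17% of all genes passed, with 2021 at an unadjusted p under 0.05. Over the host cortex arrays the leukocyte-wide mean ranged from 9.12 to 10.99 and the mean of the 3 C1q chains from 7.77 to 8.53. In C57BL/6 cortex these ranges were 10.87 to 11.07 and 12.18 to 12.32. Relative to the leukocyte-wide mean of the same array, C1qc was at -0.13 ± 0.56 in host medulla and -2.64 ± 1.08 in host cortex, against 1.71 ± 0.21 in C57BL/6 medulla and 1.94 ± 0.15 in C57BL/6 cortex. C1qb, by the same measure, was at 0.56 ± 1.39 in host medulla, against 0.63 ± 0.10 in C57BL/6 medulla. With every array scaled to the leukocyte-wide genes, C1qb no longer differed beyond the test between host and C57BL/6 medulla (-0.07, adjusted p = 0.872), while C1qa (-1.71, adjusted p = 0.00126) and C1qc (-1.84, adjusted p = 0.000142) still passed. That scaling moved the median of all genes in this comparison to 2.63. It shifts all genes of an array alike, so differences relative to that median are the same with and without it. The part of leukocyte content in the C1q result was otherwise not tested.

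**Figure D3:**
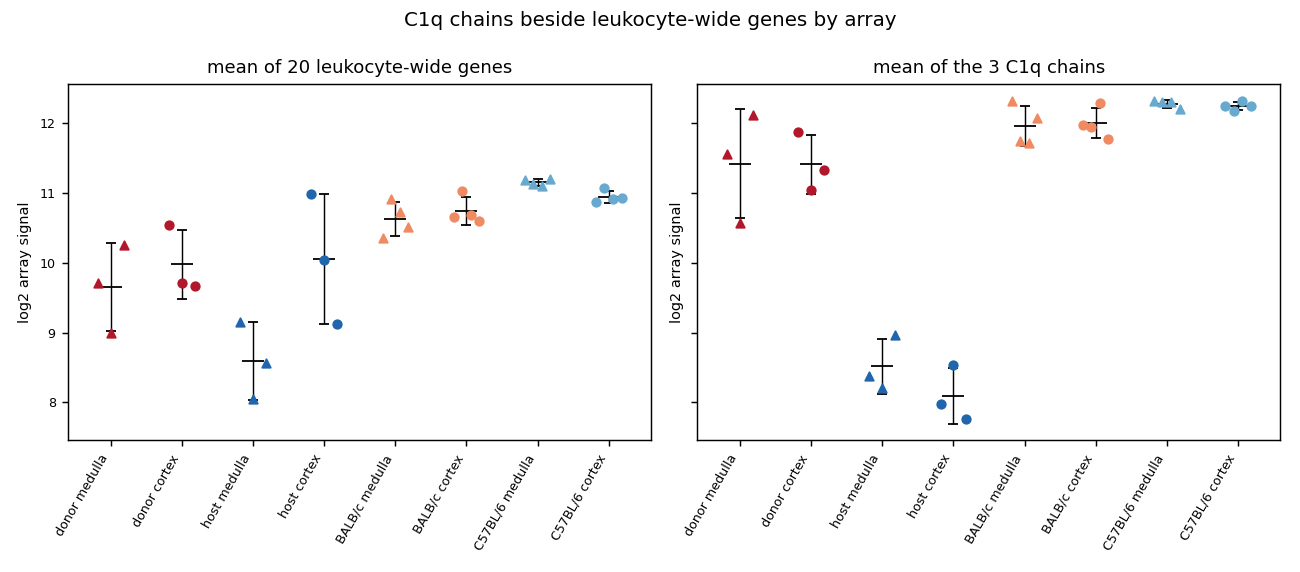
Mean log2 array signal of 20 leukocyte-wide genes and of the 3 C1q chains in each array of the 8 groups; triangles are medulla, circles are cortex, and bars are the mean ± SD. Host cortex arrays lie between 9.12 and 10.99 for the leukocyte-wide genes and between 7.77 and 8.53 for the C1q chains.

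Between regions the chains differed little, with 1 exception in host cells. C1qc was 1.06 ± 0.27 higher in host medulla than in host cortex (adjusted p = 0.0216), and its arrays did not overlap. The call ended with mouse as a fixed block (adjusted p = 0.0541), after a second quantile normalization (adjusted p = 0.0583), with only these groups in the fit (adjusted p = 0.169), and without host medulla replicate 1 or 2 or host cortex replicate 1 or 2 (adjusted p up to 0.109). Of the 7 members, 1 was higher and 1 lower in host medulla than in host cortex, where 4.29% of all genes passed. The regional difference of C1qc in host cells did not pass against that in C57BL/6 cells (1.08 ± 0.35, adjusted p = 0.229). In donor cells the regional differences of the 3 chains lay within 0.10 of 0, with intervals as wide as -0.88 to 1.07 for C1qb. In homeostatic kidneys 0 of 7 members passed between regions by limma. In BALB/c kidneys 0.0698% of all genes passed, and 1 member and 998 genes had an unadjusted p under 0.05. In C57BL/6 kidneys 0.154% of all genes passed, and 2 members and 535 genes had an unadjusted p under 0.05.

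Across the 8 groups the C1q chains were ordered C57BL/6, BALB/c, donor and host, and the step to host cells was the widest gap between neighbours for each chain. For C1qa that gap, between donor medulla (11.15 ± 1.13) and host cortex (7.96 ± 0.32), was 3.19, the gap between BALB/c cortex and donor cortex was 0.82, and the other neighbours differed by less than the larger SD. C1qb fell to 9.15 ± 1.34 in host medulla, against 10.67 ± 0.42 in donor cortex, with 11.79 ± 0.10 at the top in C57BL/6 medulla. For C1qc the gap between donor medulla and host medulla was 3.88 and that between host medulla and host cortex 1.06, and C57BL/6 medulla stood 0.27 above BALB/c cortex, while the other neighbours lay within the larger SD. The group profiles of C1qa and C1qc, each centred on its own mean, differed by a root mean square of 0.52, those of C1qa and C1qb by 0.70 and those of C1qb and C1qc by 1.09. By the same measure over the 8 group means, and among 3655 candidate genes, the profiles most like the mean of the chains were those of Cd72 (0.32), Cx3cr1 (0.32), Csf1r (0.34) and Clec4a1 (0.40). Closest to C1qa were Cd72 (0.20), Cx3cr1 (0.35), Lilr4b (0.38) and Apobec1 (0.41), and closest to C1qb were Fnbp1 (0.26), P2ry6 (0.26), Fcgr3 (0.27) and Gngt2 (0.29). Closest to C1qc were Adgre1 (0.43), Mrc1 (0.63), Cd72 (0.66) and Lilr4b (0.66).

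C3ar1, the receptor for C3a, was higher in donor than in host cells in each region. It stood at 12.03, 10.96 and 12.45 in donor medulla and at 6.84, 6.68 and 8.03 in host medulla, a difference of 4.63 ± 0.31 (adjusted p = 3.64e-09). In the cortex C3ar1 stood at 12.23, 11.99 and 11.71 in donor cells and at 6.70, 7.48 and 6.60 in host cells, a difference of 5.05 ± 0.31 (adjusted p = 5.25e-10). No donor array overlapped a host array. After scaling to leukocyte-wide genes the medullary difference was 3.57 (adjusted p = 1.86e-05). The medullary call ended with only these groups in the fit (adjusted p = 0.0855). Against C57BL/6 cells, where C3ar1 lay between 12.49 and 12.78 in all 8 arrays, it differed by -5.44 ± 0.29 in host medulla (adjusted p = 2.72e-11) and by -5.66 ± 0.29 in host cortex (adjusted p = 7.9e-12). Its mean percentile among all probesets of an array was 34.5 in host medulla and 28.8 in host cortex, against 98.3 in C57BL/6 medulla and 98.2 in C57BL/6 cortex. C3ar1 thus met the filter on dim genes through other groups, and whether its host level is above background was not tested.

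The strain difference of C3ar1 did not pass, at -0.29 ± 0.27 in the medulla (interval -0.84 to 0.27) and -0.13 ± 0.27 in the cortex (-0.69 to 0.43), BALB/c minus C57BL/6. The donor-host difference exceeded it by 4.91 ± 0.41 in the medulla (adjusted p = 2.49e-07) and by 5.18 ± 0.41 in the cortex (adjusted p = 8.95e-08). The medullary value was 3.33 after scaling to leukocyte-wide genes (adjusted p = 0.00445) and 4.90 without BALB/c medulla replicate 1. Donor cells differed from BALB/c cells by -0.52 ± 0.29 in the medulla (adjusted p = 0.291) and by -0.48 ± 0.29 in the cortex (adjusted p = 0.228), where the arrays did not overlap but the test did not pass. After scaling to leukocyte-wide genes, C3ar1 still differed by -2.88 between host and C57BL/6 medulla (adjusted p = 8.8e-07). Adgre1 (0.34), Mrc1 (0.53), Lilr4b (0.58) and Mmp12 (0.70) had the group profiles most like that of C3ar1.

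C5ar1, the receptor for C5a, was the member that passed between the homeostatic strains. It stood at 7.60, 9.84, 8.92 and 7.76 in BALB/c medulla and at 11.64, 11.62, 11.63 and 10.98 in C57BL/6 medulla, a difference of -2.94 ± 0.43 (adjusted p = 0.000485). In the cortex C5ar1 stood at 8.70, 9.05, 8.24 and 7.69 in BALB/c cells and at 10.19, 10.89, 10.82 and 10.69 in C57BL/6 cells, a difference of -2.22 ± 0.43 (adjusted p = 0.0032). The strains did not overlap in either region. Nor did they overlap for C1qb, C3ar1 and Cfp in the medulla or for C1qc in the cortex, which did not pass. Without BALB/c medulla replicate 1 the medullary difference was -2.63 (adjusted p = 0.00281), and the cortical call ended after scaling to leukocyte-wide genes (-2.02, adjusted p = 0.086). C5ar1 was the 1 member of 7 that passed between strains in each region, where 9.1% of all genes passed in the medulla and 9.8% in the cortex. The number of all genes that passed depended on the filter. In the cortex it was 1404 as reported, 343 with the strict filter and 3897 with no filter on dim genes. The regional difference did not pass between strains for any member by limma, where 0.0419% of all genes passed and 1 member, Cfp, and 612 genes had an unadjusted p under 0.05.

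In grafts C5ar1 stood at 8.11, 8.64 and 9.77 in donor medulla and at 6.84, 6.60 and 6.58 in host medulla. In the cortex it stood at 9.12, 7.88 and 9.44 in donor cells and at 6.53, 6.46 and 6.87 in host cells. Donor arrays lay above host arrays in both regions, by 2.16 ± 0.49 in the medulla (adjusted p = 0.0413) and 2.19 ± 0.49 in the cortex (adjusted p = 0.0428). Both calls lay near the threshold. The medullary call ended without donor medulla replicate 2 or 3 or any 1 host medulla array (adjusted p up to 0.341), and the cortical call without donor cortex replicate 1 or 3 or any 1 host cortex array (adjusted p up to 0.191). Both also ended with no filter on dim genes (adjusted p = 0.0518 in the medulla and 0.0566 in the cortex), after a second quantile normalization (adjusted p = 0.0936 in the medulla and 0.222 in the cortex) and with only the groups compared in the fit (adjusted p = 0.356 in the medulla and 0.476 in the cortex). The medullary call also ended after scaling to leukocyte-wide genes (1.10, adjusted p = 0.0761).

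C5ar1 was lower in host cells than in C57BL/6 cells without overlap in either region. It differed by -4.79 ± 0.46 between host and C57BL/6 medulla (adjusted p = 1.6e-07) and by -4.03 ± 0.46 between host and C57BL/6 cortex (adjusted p = 4.3e-06). Its mean percentile among all probesets of an array was 19.7 in host medulla and 20.3 in host cortex. C5ar1 thus met the filter on dim genes through other groups, and whether its host level is above background was not tested. The donor-host difference exceeded the strain difference by 5.10 ± 0.65 in the medulla (adjusted p = 0.000107) and by 4.42 ± 0.65 in the cortex (adjusted p = 0.00119), and the medullary value was 3.52 after scaling to leukocyte-wide genes (adjusted p = 0.00771) and 4.79 without BALB/c medulla replicate 1. Donor cells differed from BALB/c cells by 0.31 ± 0.46 in the medulla (interval -0.64 to 1.26) and 0.39 ± 0.46 in the cortex (-0.57 to 1.34). The order of levels was C57BL/6 medulla (11.47 ± 0.32), C57BL/6 cortex (10.65 ± 0.32), then the 4 donor and BALB/c groups between 8.84 ± 0.85 and 8.42 ± 0.59 without a gap beyond their spread, then host medulla (6.68 ± 0.14) and host cortex (6.62 ± 0.22). The group profiles most like that of C5ar1 were those of Olfr99 (0.41), Snord82 (0.60), Tlr4 (0.70) and Ifi207 (0.73).

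Cfb had another pattern: it was high in graft cortex, in donor and in host cells. Cfb stood at 9.81, 8.55 and 7.86 in donor medulla and at 12.27, 12.08 and 12.47 in donor cortex. In host cells it stood at 8.40, 8.14 and 8.92 in the medulla and at 11.76, 12.79 and 12.52 in the cortex. Every graft cortex array lay above every graft medulla array. The difference between medulla and cortex was -3.53 ± 0.45 in donor cells (adjusted p = 3.26e-05), an 11.6-fold difference, and -3.87 ± 0.45 in host cells (adjusted p = 7.61e-06), a 14.6-fold difference. The mean of the leukocyte-wide genes was 8.59 ± 0.55 in host medulla and 10.05 ± 0.93 in host cortex. After scaling to those genes the difference in host cells was -2.41 (adjusted p = 0.00396). The same scaling gave -3.21 in donor cells (adjusted p = 0.00403). Cfb was the 1 member of 7 that passed between regions in donor cells, where 2.55% of all genes passed. Donor and host cells differed by 0.25 ± 0.45 in the medulla (interval -0.68 to 1.18) and -0.09 ± 0.45 in the cortex (-1.01 to 0.84).

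Graft cortex also stood above homeostatic cortex. Cfb lay between 8.84 and 9.65 in BALB/c cortex, and donor cortex was higher by 3.02 ± 0.42 (adjusted p = 9.62e-05). It lay between 8.85 and 10.64 in C57BL/6 cortex, and host cortex was higher by 2.64 ± 0.42 (adjusted p = 0.000374). In the medulla the differences were 0.50 ± 0.42 for donor minus BALB/c cells (adjusted p = 0.496) and -0.03 ± 0.42 for host minus C57BL/6 cells (adjusted p = 0.983). Homeostatic medulla minus cortex differed by -1.01 ± 0.39 in BALB/c (adjusted p = 0.579) and by -1.20 ± 0.39 in C57BL/6 kidneys (adjusted p = 0.511), which did not pass.

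The regional difference of Cfb in host cells differed from that in C57BL/6 cells by -2.67 ± 0.59 (adjusted p = 0.0278), the 1 member of 7 that passed where 0.901% of all genes passed. That call ended with mouse as a fixed block (adjusted p = 0.107), after scaling to leukocyte-wide genes (-1.01, adjusted p = 0.254) and with only these groups in the fit (adjusted p = 0.0737). It also ended without host medulla replicate 1 or 2, host cortex replicate 2, C57BL/6 medulla replicate 2 or 3, or C57BL/6 cortex replicate 3 or 4 (adjusted p up to 0.0933). The same contrast of donor and BALB/c cells was -2.52 ± 0.59 (adjusted p = 0.06), and 0 of 7 members passed by limma where 0.454% of all genes did, with 1 member and 1238 genes at an unadjusted p under 0.05. With mouse as a random block Cfb passed in that contrast (adjusted p = 0.0392), as it did without donor medulla replicate 1 (-3.05, adjusted p = 0.0115) and without BALB/c cortex replicate 1 (-2.65, adjusted p = 0.0461).

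**Figure D4:**
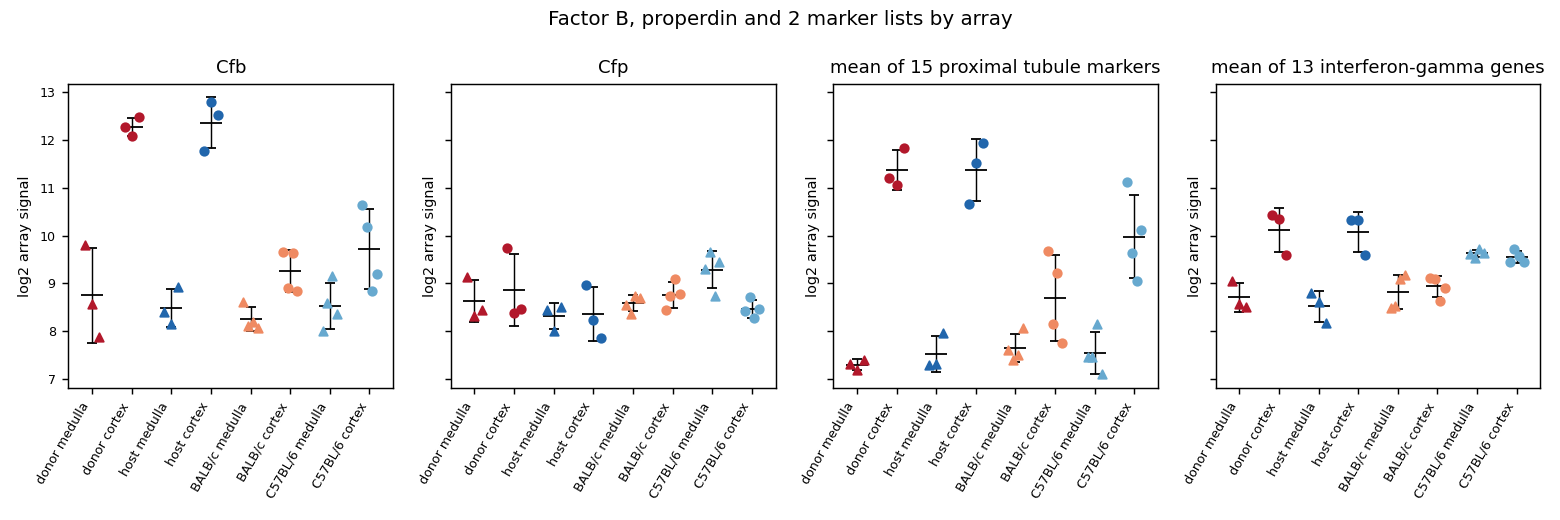
Log2 array signal of Cfb and Cfp, and the means of 15 proximal tubule markers and of 13 interferon-gamma response genes, in each array of the 8 groups; triangles are medulla, circles are cortex, and bars are the mean ± SD. Cfb lies between 11.76 and 12.79 in the 6 graft cortex arrays and at or below 10.64 in all others, and the tubule markers are high in the same arrays and in 1 C57BL/6 cortex array.

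Proximal tubule markers moved with Cfb. The mean of 15 such markers ranged from 7.18 to 7.40 in donor medulla and from 11.05 to 11.84 in donor cortex, and from 7.28 to 7.95 in host medulla and from 10.67 to 11.95 in host cortex. Of the 15, 13 were lower in medulla than in cortex in donor cells (median -4.82), where 2.55% of all genes passed. In host cells 13 were lower and 1 higher (median -4.29), where 4.29% of all genes passed. Over the C57BL/6 cortex arrays the marker mean ranged from 9.05 to 11.12 and Cfb from 8.85 to 10.64, with both highest in replicate 1. Donor cortex arrays had Cfb at 12.08 to 12.47. Lrp2, which encodes the tubular uptake receptor megalin, averaged 12.47 ± 0.30 in donor cortex and 12.43 ± 0.65 in host cortex, against 8.42 ± 1.39 in BALB/c cortex and 10.78 ± 1.22 in C57BL/6 cortex. The part of tubule RNA in the Cfb result was not tested. The group profiles most like that of Cfb were those of Nat8f5 (0.23), Folh1 (0.25), Map3k7cl (0.26) and Rdh16f2 (0.28).

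Genes of the interferon-gamma response, a pathway known to induce Cfb, also moved with it between graft regions. Of 13 such genes, 6 were lower in medulla than in cortex in donor cells (median -1.19), where 2.55% of all genes passed. In host cells 6 were lower (median -1.47), where 4.29% of all genes passed. The mean of the 13 genes was 8.52 ± 0.32 in host and 9.63 ± 0.08 in C57BL/6 medulla, where Cfb differed by -0.03 ± 0.42. In the cortex it was 10.08 ± 0.42 in host and 9.54 ± 0.13 in C57BL/6 cells. Donor and BALB/c cells averaged 8.70 ± 0.30 and 8.82 ± 0.36 in the medulla, and 10.12 ± 0.47 and 8.93 ± 0.22 in the cortex. In the homeostatic kidneys 0 of 13 passed between regions by limma, with 2 at an unadjusted p under 0.05 in BALB/c and 0 in C57BL/6. Of all genes, 0.0698% passed in BALB/c and 0.154% in C57BL/6 kidneys, with 998 and 535 at an unadjusted p under 0.05. Cxcl9, a chemokine induced by interferon-gamma, averaged 8.52 ± 0.39 in donor medulla and 11.43 ± 1.23 in donor cortex, and 7.00 ± 0.14 in host medulla and 10.57 ± 0.84 in host cortex. Irf1, a transcription factor of the same response, differed by -0.54 ± 0.53 between medulla and cortex in donor cells, which did not pass, and by -2.16 ± 0.53 in host cells (adjusted p = 0.0176). The part of interferon-gamma in the Cfb result was not tested.

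Cfp varied least among the 7 measured members, with group means between 8.31 ± 0.28 in host medulla and 9.28 ± 0.39 in C57BL/6 medulla. It passed in 1 comparison, being lower in host than in C57BL/6 medulla (-0.98 ± 0.30, adjusted p = 0.0341), with 8.43, 7.99 and 8.49 in host cells and 9.29, 9.65, 8.74 and 9.45 in C57BL/6 cells. The call ended without any 1 host medulla array or without C57BL/6 medulla replicate 1, 2 or 4 (adjusted p up to 0.163). After scaling to leukocyte-wide genes, which moved the median of all genes to 2.63, the sign turned (1.58, adjusted p = 0.000168). In C57BL/6 kidneys Cfp was higher in medulla than in cortex by 0.82 ± 0.28 without overlap, which did not pass (adjusted p = 0.604). Cyp4f16 (0.27), AV039307 (0.28), Proser1 (0.29) and Stxbp3 (0.30) had the group profiles most like that of Cfp.

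Of 44 other complement genes listed, 39 had a probeset and 30 were tested. Among these, 2 were higher and 3 lower in host than in C57BL/6 medulla, where 11.5% of all genes passed, and 3 were higher and 2 lower in host than in C57BL/6 cortex, where 4.17% passed. In donor against BALB/c cells, 2 were higher and 2 lower in the medulla, where 3.18% of all genes passed, and 3 were higher and 7 lower in the cortex, where 23.9% passed. Clu, which encodes clusterin, a fluid-phase inhibitor of the terminal pathway, was higher in grafts in all 4 of these comparisons, by 2.99 ± 0.55 in donor medulla (adjusted p = 0.00628), 4.16 ± 0.55 in donor cortex (adjusted p = 6.08e-05), 4.18 ± 0.55 in host medulla (adjusted p = 1.38e-05) and 3.94 ± 0.55 in host cortex (adjusted p = 7.78e-05). Its level averaged 10.85 ± 1.66 in donor medulla, 12.46 ± 0.71 in donor cortex, 11.71 ± 1.39 in host medulla and 12.62 ± 0.30 in host cortex, and no homeostatic group averaged above 8.68 ± 0.17. Tubular cells are known to make clusterin. Of 12 epithelium-wide genes, 11 were higher in host than in C57BL/6 medulla, where 11.5% of all genes passed. The part of tubular cells in this result was not tested.

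Itgam, the alpha chain of complement receptor 3, was the 1 gene of these 30 that passed between donor and host cells. Of all genes 0.593% passed there in the medulla and 0.496% in the cortex. Itgam was higher in donor cells by 2.18 ± 0.32 in the medulla (adjusted p = 0.000435) and by 1.94 ± 0.32 in the cortex (adjusted p = 0.00228). Against C57BL/6 cells, Itgam differed by -3.21 ± 0.30 in host medulla (adjusted p = 1.03e-07) and by -1.71 ± 0.30 in host cortex (adjusted p = 0.00105). Cd55, a membrane regulator that speeds the decay of convertases, was also lower in host cells, with differences of -2.01 ± 0.51 in the medulla and -2.27 ± 0.51 in the cortex (adjusted p = 0.0105 in each). Between strains 4 of the 30 genes were higher and 1 lower in BALB/c cells in each region, where 9.1% of all genes passed in the medulla and 9.8% in the cortex. The lower genes were Itgam in the medulla (-1.86 ± 0.28, adjusted p = 0.000502) and Cd55 in the cortex (-2.85 ± 0.48, adjusted p = 0.00136).

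Between regions of the grafts 1 of the 30 genes was higher and 2 were lower in the medulla in donor cells, where 2.55% of all genes passed, and 1 was higher and 2 were lower in host cells, where 4.29% passed. C4b, a component of the classical pathway, was lower in medulla than in cortex, with differences of -0.95 ± 0.21 in donor cells (adjusted p = 0.0125) and -1.01 ± 0.21 in host cells (adjusted p = 0.0048), in the direction of Cfb. Cfi, the protease that cleaves C3b and C4b, differed by -2.17 ± 0.50 in donor cells (adjusted p = 0.0164), with 6.82 ± 0.29 in donor medulla and 9.00 ± 0.49 in donor cortex. Cd59b, a membrane inhibitor of the terminal pathway, was higher in host medulla than in host cortex by 2.63 ± 0.51 (adjusted p = 0.00232). In homeostatic kidneys 0 of the 30 genes passed between regions by limma, with 3 at an unadjusted p under 0.05 in BALB/c and 4 in C57BL/6. Of all genes 0.0698% passed in BALB/c and 0.154% in C57BL/6 kidneys, with 998 and 535 at an unadjusted p under 0.05.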

How the data were processed

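RNA of renal dendritic cells sorted by CD45, CD11c and MHC class II was amplified and hybridised to 28 Affymetrix arrays. The deposited values are log2 signal that the authors made by RMA with oligo (per the submitters' processing notes). Tool versions, the genome build and detection calls were not given in the sources used here. These log2 values were used as deposited. The table has 22549 probesets, of which 20646 list 1 gene symbol and were used; 551 list several and 1352 none. For the 810 genes with more than 1, the brightest probeset on average was kept. Testing required a value above percentile 40 of the array on 3 or more of the 28 arrays, whatever their groups, and 14325 genes met this. All 7 measured members passed this filter.

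The tests used limma 3.58.1 (R 4.3.3) with a group-means model of the 28 arrays, which leaves 20 residual degrees of freedom, 2-sided, with Benjamini-Hochberg adjustment over all genes of each comparison. There were 12 comparisons of groups and 5 interaction contrasts. Over these 17 the median difference of all genes lay between -0.19 and 0.17, and differences are given as fitted. The procedure was tested on simulated data.

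The labels give a mouse number, which donor and host cells of 1 graft share. Residuals of arrays with the same number had mean correlations of 0.155 between donor regions, 0.106 between host regions, 0.171 between donor and host medulla and 0.220 between donor and host cortex, but -0.006 in BALB/c and -0.003 in C57BL/6 kidneys. Mouse was no term of the model but was tried as a block. The members and the gene lists were chosen with earlier results of these data known. The genes named are the members, up to 4 passing genes of the complement list per comparison by smallest adjusted p, sort and cell markers, and for each member the 4 genes with the smallest root mean square difference of centred group means among genes whose group means have an SD of at least 0.5. Alternatives were a random and a fixed block for mouse number, the mean of all probesets of a gene, no filter or a strict filter on dim genes, a second quantile normalization, scaling to leukocyte-wide genes, a variance trend, array weights, the groups compared fitted alone, and leaving out each array in turn. C3 was not analysed here. Promoter windows came from RefSeq, GRCm38.p6.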

Additional observations from a re-analysis of the deposited data

Results flagged for a closer look

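C5ar1 in C57BL/6 medulla replicate 4 stood at 10.98, apart from the other 3 arrays of its group, with a gap of 0.961 of the range of the group. The test was run on 28 sets of 4 values, each set being 1 gene in 1 homeostatic group. Of these, 1 was picked out in this way. Chance picks out about 1 in 20, and 1 of 28 is not beyond that rate.

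Differences that themselves differed between groups, by an interaction test in limma, were these. The regional difference of Cfb in host cells minus that in C57BL/6 cells was -2.67. The donor-host difference beyond the strain difference was, in the medulla, 3.42 for C1qa, 4.24 for C1qc, 4.91 for C3ar1 and 5.10 for C5ar1. In the cortex it was 3.46 for C1qa, 5.31 for C1qc, 5.18 for C3ar1 and 4.42 for C5ar1. These donor-host values draw on the same arrays as the host-C57BL/6 differences.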

How the results depend on the processing

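Of 35 member results that passed, 24 kept their direction and their call in every alternative run. Over 626 alternative values, 579 kept the call, 46 lost it and 1 reversed: Cfp in host minus C57BL/6 medulla was 1.58 after scaling to leukocyte-wide genes, a scaling that moved the median of all genes there to 2.63 and turned 899 higher and 748 lower genes into 13538 higher and 109 lower ones. With that scaling the count of members that passed was 7 for host medulla minus cortex, 0 for BALB/c minus C57BL/6 cortex, 1 for donor minus BALB/c medulla and 4 for the regional difference of host minus C57BL/6 cells. With mouse as a fixed replicate block it was 1 for host medulla minus cortex and 0 for the regional difference of host minus C57BL/6 cells, and with mouse as a random replicate block it was 1 for the regional difference of donor minus BALB/c cells; the block changed no other call. A second quantile normalization gave 1 for host medulla minus cortex, and array weights gave 2 for the regional difference of host minus C57BL/6 cells. With the groups compared fitted alone, which leaves fewer arrays, the counts were 1 for host medulla minus cortex, 0 for donor minus host medulla, 2 for donor minus host cortex and 0 for the regional difference of host minus C57BL/6 cells. The cause of these changes was not tested. Leaving out 1 array at a time gave 1 to 2 members for host medulla minus cortex, 3 to 4 for donor minus host cells in each region, 5 to 6 for host minus C57BL/6 medulla, 0 to 1 for each of the regional differences that set graft against homeostatic cells, and 4 to 5 for the medullary donor-host difference beyond strain. Counts over all genes moved more: without the leukocyte scaling, from 1 to 221 for donor minus host medulla (85 as reported), from 4 to 212 for donor minus host cortex (71) and from 313 to 1404 for host minus C57BL/6 cortex (597). Signal over background was not analysed here, which limits what the lowest levels, such as C3ar1, C5ar1 and cortical C1qc in host cells, can show.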
